A study of Rattus norvegicus with 6 samples.

Results

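Lysosomal hydrolases and the proton pump that acidifies the lysosome were read in cultured rat skeletal muscle-derived stem cells exposed to lipids, sera or glucose. The genes were taken by symbol: the cathepsins (Cts followed by 1 letter), the subunits of the vacuolar proton pump (Atp6v0 and Atp6v1), Lamp1 and Lamp2, Hexa, and Npc1 and Npc2. Lamp and Npc proteins are no hydrolases, but share the compartment. The rule found 40 genes on 41 probe sets, of 18166 genes that have a probe set annotated to 1 symbol. They were 15 cathepsins, 20 pump subunits and 5 others (Hexa, Lamp1, Lamp2, Npc1 and Npc2). Other genes of these families, among them Ctsz and Atp6v0a2, have no probe set with a single symbol in the annotation used here and were not analysed here.

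RNA from 6 cultures was read on the Affymetrix Rat Gene 2.0 ST array, 1 array per group and so without replicates. The cells came from males and were isolated by plating. The cholesterol culture received 100 mg/dl cholesterol with the carrier cyclodextrin, and the fatty acid culture was given sodium palmitate, a saturated fatty acid salt, at a dose the labels leave out. The remaining cultures are a control titled high glucose, another titled low glucose, and the sera LZ and OZ, names used as given. The labels do not say how much glucose each held, whether a control held cyclodextrin, or which control belongs to which lipid. Each lipid culture was therefore set against both controls. The value given is the smaller of both log2 differences where they had the same sign, and 0 where the signs differed. Every difference describes these 6 libraries. Without replicate spread there was no test, and no difference can be held against biological error. The gap between both controls is given as the nearest yardstick, although it also holds any effect of glucose.

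The deposited values are intensities on a linear scale, with array medians from 104.6 to 109.2. A gene was kept when its mean over the arrays reached the median of all values, an intensity of 107.2, which left 11540 genes in all. Of the 40 genes, 31 were kept: 9 cathepsins, 17 pump subunits and the 5 others. The 9 that were not kept were Ctsg, Ctsm, Ctsq, Ctsr, Ctss, Ctsw, Atp6v0d2, Atp6v1e2 and Atp6v1g3, read between 8.62 and 108.2 in every library, and no difference is given for them. A second probe set of Atp6v0e1, read between 27.0 and 48.2, was set aside for the brighter one. Kept genes close to that limit (Atp6v0a4, Atp6v1b1, Atp6v1g2, Ctsc and Ctse) have less certain differences than the bright ones. RefSeq lists pseudogenes of Atp6v0c, Atp6v1a, Atp6v1e1 and Atp6v1g1, so their probe sets could also read those copies.

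The labelled cell type was checked against marker genes, by their mean over the arrays. All 9 annotated mesenchymal progenitor markers, such as Col1a1 and Pdgfra, lay above the median, with summed intensities from 35600 in the fatty acid library to 51549 in the LZ serum library. In single libraries Lum was below it with cholesterol (63.0), fatty acid (64.8) and low glucose (90.5), and Cd34 with fatty acid (72.3). Of 7 myogenic markers only Pax7 and Des reached the median, at intensities of 119.4 to 153.2 and 113.8 to 133.0, whereas Myod1, Myf5 and Myog did not. None of 3 endothelial markers and 6 of 16 macrophage and leukocyte markers reached it, and the leukocyte marker Ptprc stayed between 42.8 and 48.0.

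Lysosomes break down proteins, glycans and lipids delivered by endocytosis and autophagy. Their hydrolases work at acid pH, which the vacuolar proton pump maintains: the V1 sector in the cytosol hydrolyses ATP and turns a rotor that moves protons through the membrane-bound V0 sector. Cathepsins are the main lysosomal proteases. Npc2 and Npc1 pass free cholesterol, released from lipoproteins, out of the lysosome. The transcription factors TFEB and TFE3 bind an E-box in the promoters of many genes of this compartment, and are held in the cytosol by the growth kinase mTORC1 when nutrients are plentiful. In bulk RNA of this kind, fewer cells of a type and less RNA per cell cannot be told apart.

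The E-box was looked for in RefSeq promoters of assembly GRCr8, each 300 bases long from 250 before to 50 after the annotated start. Promoters of 31 of the 40 genes were available. Those of Ctsb, Ctsq, Ctsw, Atp6v0d2, Atp6v0e2, Atp6v1b2, Atp6v1c1, Atp6v1h and Hexa were not, so these genes were not searched. The letters searched were the core CACGTG and the longer TCACGTGA, which contains it; both read the same on either strand. The core was found in 5 of the 31 promoters (16.1%), against 6.42% of all 33469 promoters. Of the 25 that belong to kept members 5 held it (20%), against 9.32% of the promoters of all kept genes. The longer form was found in 4 of 31 (12.9%), against 0.777% of all promoters, and in 4 of the 25 of kept members (16%), against 1.64%. A match describes the letters in that window and shows no binding, and a window without one says nothing of the factor. By class, the core stood in 2 of 12 cathepsin promoters (Ctsd and Ctsf), 2 of 15 pump promoters (Atp6v0d1 and Atp6v0e1) and 1 of 4 others (Lamp1).

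**Figure D1:**
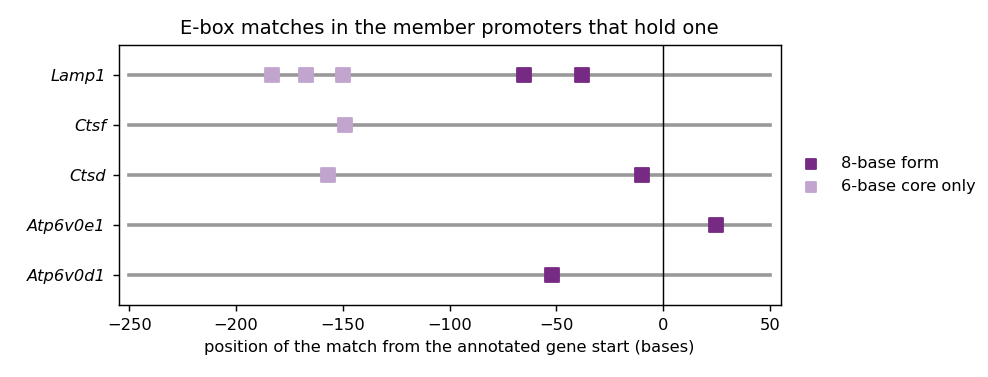
Position of each E-box core (square) in the 5 promoters that hold one, in bases from the annotated gene start, with dark squares for the 8-base form. Lamp1 holds 5 matches, Ctsd 2, and Ctsf, Atp6v0d1 and Atp6v0e1 1 each.

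The promoters of a cathepsin, a pump subunit and a membrane protein that hold the longer form are shown, together with that of Ctsk, the cathepsin with the largest difference in the cholesterol library, whose window holds no match. They run 5′ to 3′ on the gene's strand, with each core in capitals. The windows lie at chr1:206968772-206969071 on the minus strand for Ctsd, chr19:50357199-50357498 on the minus strand for Atp6v0d1, chr16:83075014-83075313 on the minus strand for Lamp1 and chr2:185747298-185747597 on the plus strand for Ctsk. The matches begin at -157 and -10 from the start in Ctsd, at -52 in Atp6v0d1, and at -183, -167, -150, -65 and -38 in Lamp1; those at -10, -52, -65 and -38 are of the longer form.
Ctsd: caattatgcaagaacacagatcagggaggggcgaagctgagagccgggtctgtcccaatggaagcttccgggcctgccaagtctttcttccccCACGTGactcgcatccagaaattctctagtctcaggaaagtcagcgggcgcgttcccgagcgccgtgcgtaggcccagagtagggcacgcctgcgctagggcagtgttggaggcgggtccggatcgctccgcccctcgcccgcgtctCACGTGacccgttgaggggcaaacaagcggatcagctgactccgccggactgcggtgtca
Atp6v0d1: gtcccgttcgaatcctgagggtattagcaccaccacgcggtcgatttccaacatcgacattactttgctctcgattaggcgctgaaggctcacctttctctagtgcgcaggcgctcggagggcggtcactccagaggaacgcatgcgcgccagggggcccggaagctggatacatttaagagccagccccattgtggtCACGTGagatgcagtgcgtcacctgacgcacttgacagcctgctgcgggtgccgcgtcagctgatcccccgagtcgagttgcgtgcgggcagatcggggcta
Lamp1: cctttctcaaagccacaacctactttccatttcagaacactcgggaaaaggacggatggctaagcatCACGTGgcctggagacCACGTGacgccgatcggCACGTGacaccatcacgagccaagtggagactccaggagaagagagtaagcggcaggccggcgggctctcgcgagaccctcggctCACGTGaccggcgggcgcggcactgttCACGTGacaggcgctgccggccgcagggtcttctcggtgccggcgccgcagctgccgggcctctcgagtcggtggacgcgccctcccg
Ctsk: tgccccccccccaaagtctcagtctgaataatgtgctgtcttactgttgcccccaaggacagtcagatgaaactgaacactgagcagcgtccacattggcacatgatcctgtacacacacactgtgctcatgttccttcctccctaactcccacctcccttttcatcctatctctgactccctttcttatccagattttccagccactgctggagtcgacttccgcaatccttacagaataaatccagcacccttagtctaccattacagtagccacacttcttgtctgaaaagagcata

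Against both controls, the cholesterol library had higher readings for most subunits of the proton pump and no common direction among the cathepsins. Of 17 pump subunits 14 were higher, 1 was lower and 2 lay between the controls, called mixed here. Of 9 cathepsins 3 were higher, 3 lower and 3 mixed. Over all genes kept, 36.3% were higher and 33.6% lower than both controls. The median difference was 0.10 on the log2 scale for the pump, 0 for the cathepsins and 0 for all genes. Sizes were small: 1 of the 31 genes, Atp6v1b2, was at least 1.5-fold higher, a size reached by 1.36% of all genes, and none was at least 1.5-fold lower, against 2.04% of all genes. None of the 31 differed by 2-fold, against 1.19%.

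The pump's V1 sector gave the largest differences. Atp6v1b2, the widely expressed B subunit that pairs with the catalytic A subunit, read 2430.5 in the cholesterol library, 1604 in the high and 1384 in the low glucose control, 1512 in LZ serum, 1319 in OZ serum and 2439 in the fatty acid library. The lipid libraries thus stood together above the other 4. Against the nearer control the cholesterol reading was 1.52-fold higher (log2 0.60), where both controls differed by 0.21. Atp6v1f, the small F subunit of the central rotor stalk, read 4619 with cholesterol, 3289 and 3121 in the high and low glucose controls, 3088 and 2974 in LZ and OZ serum, and 3072 with fatty acid. Here the cholesterol library stood alone, 1.40-fold above the nearer control. The catalytic subunit itself, Atp6v1a, was closer to its controls, at 1989 with cholesterol against 1871 and 1679.9, or 1.06-fold.

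Other V1 genes were modestly higher with cholesterol: Atp6v1c1, a stator subunit, by 1.19-fold, Atp6v1g1, of the peripheral stalks, by 1.15-fold, and Atp6v1d and Atp6v1h by 0.10 and 0.097 on the log2 scale. Atp6v1e1, also of the stalks, was mixed. The kidney-type isoform Atp6v1b1 read 107.3 to 114.4 in every library, at the limit of the signal filter, and gave the pump's only lower value, -0.0022. Of 10 V1 subunits 8 were higher and 1 lower.

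In the V0 sector 6 of 7 subunits were higher with cholesterol and none was lower. Atp6v0b, a proteolipid of the rotor ring, read 2383 with cholesterol, 1699 and 1767 in the high and low glucose controls, 1761 and 1634 in LZ and OZ serum, and 2065 with fatty acid. Cholesterol was the highest and fatty acid the next, and the cholesterol reading was 1.35-fold above the nearer control. Atp6v0d1, which couples the ring to the stalk, read 6766 with cholesterol, 5690.3 and 5170.4 in the high and low controls, 5226 and 5219 in LZ and OZ serum, and 4956 with fatty acid. For this subunit the lipid libraries were at opposite ends of the 6, with cholesterol 1.19-fold above the nearer control. The main ring proteolipid Atp6v0c was 1.15-fold, Atp6v0e1 1.07-fold and the large subunit Atp6v0a1 0.050 on the log2 scale above the nearer control. Atp6v0a4, an epithelial isoform, was mixed and dim.

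**Figure D2:**
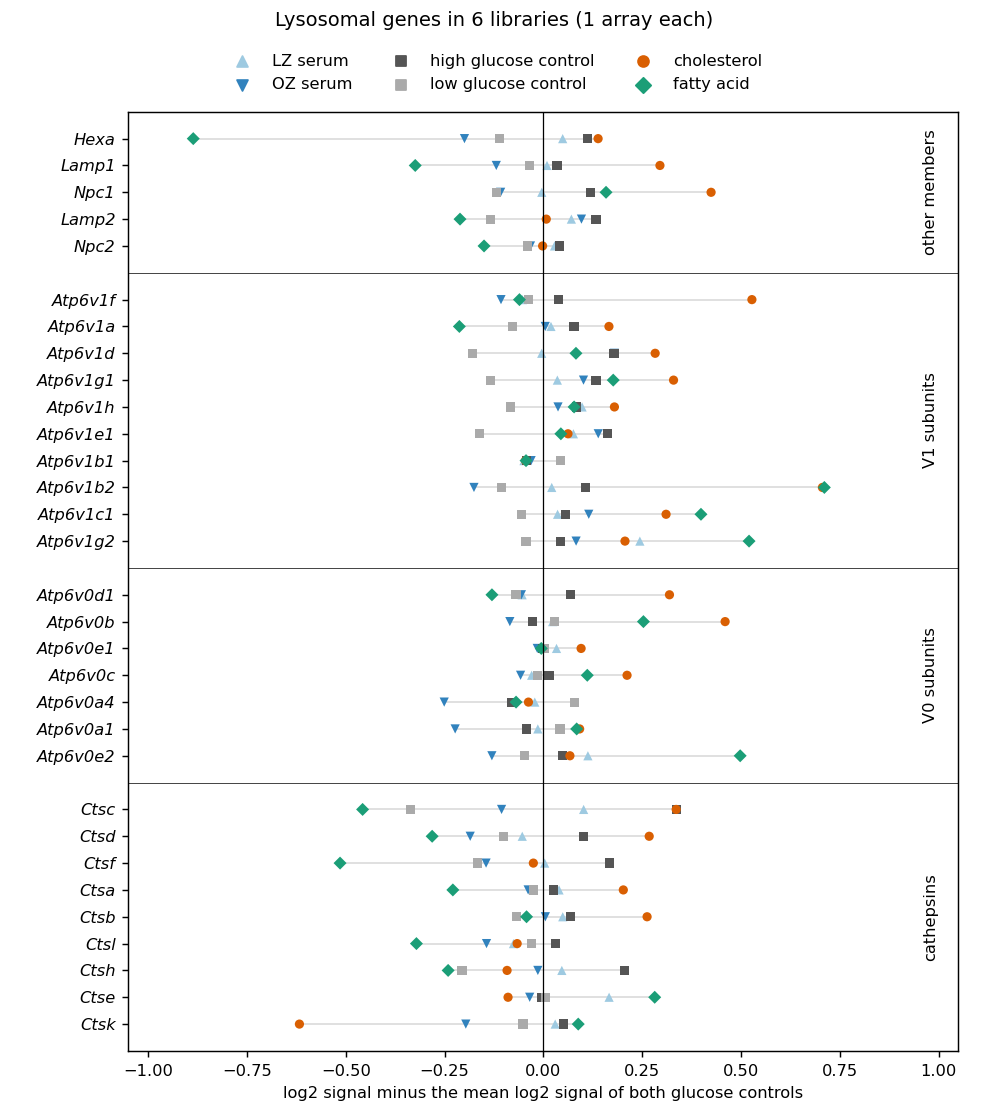
Log2 intensity of each of the 31 kept genes (rows, by class) in the 6 libraries, minus the mean of both glucose controls; 1 symbol is 1 array. The cholesterol symbol lies farthest right for 10 of 17 pump subunits, and the fatty acid symbol farthest left for 6 of 9 cathepsins.

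Among the cathepsins, Ctsk had the largest difference in the cholesterol library, and it was lower. Ctsk, a collagen-degrading cysteine protease known from osteoclasts and also made by fibroblasts, read 877 with cholesterol, 1394 and 1298 in the high and low glucose controls, 1373 and 1174 in LZ and OZ serum, and 1430.1 with fatty acid. The cholesterol reading lay below all 5 others, 1.48-fold below the nearer control (log2 -0.57), and both controls differed by 0.10. The summed mesenchymal markers were also lower with cholesterol, at 42860.5 against 50466 and 49680, and 7 of 9 of them were lower than both controls, against 33.6% of all genes. Their part in the Ctsk value was not tested. Of 3 annotated osteoclast markers 1 reached the median of all values in its mean over the arrays, and their summed intensities ran from 289.7 to 314.8.

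The higher cathepsins with cholesterol were Ctsb, Ctsa and Ctsd. Ctsb, a cysteine protease, read 9450.5 with cholesterol, 8259 and 7517 in the high and low controls, 8151 and 7906 in LZ and OZ serum, and 7649.7 with fatty acid, so that cholesterol was the highest and 1.14-fold above the nearer control. Ctsa, a serine carboxypeptidase that also stabilises beta-galactosidase and neuraminidase, was 1.13-fold higher. Ctsd, the main aspartic protease of the lysosome, was 1.12-fold higher, by 0.17 on the log2 scale against a gap of 0.20 between the controls. Ctsl and Ctse were lower by small amounts, -0.036 and -0.084 on the log2 scale. Ctsc, Ctsf and Ctsh lay between both controls.

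Of the remaining genes Npc1 and Lamp1 were higher with cholesterol. Npc1, the membrane transporter for cholesterol leaving the lysosome, read 2458 with cholesterol, 1989 and 1686 in the high and low controls, 1826 and 1699 in LZ and OZ serum, and 2044 with fatty acid. Cholesterol gave the highest reading, 1.24-fold above the nearer control, against a gap of 0.24 on the log2 scale between the controls and a difference of 0.31. Lamp1, a heavily glycosylated protein of the lysosomal membrane, was 1.20-fold higher. Hexa was 1.02-fold higher, while Lamp2 and Npc2, the soluble partner of Npc1, were mixed.

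Set against the gap between both controls for the same gene, 12 of the 31 genes were higher and 2 lower with cholesterol by more than that gap. Over all 11540 genes, 2277 were higher and 2085 lower by more than their gap, 37.8% in either direction. The pump supplied 8 of the 12 (Atp6v0b, Atp6v0c, Atp6v0d1, Atp6v0e1, Atp6v1b2, Atp6v1c1, Atp6v1f and Atp6v1g2) and none of the lower ones. Cathepsins supplied 2 in each direction, Ctsa and Ctsb higher, Ctsk and Ctse lower.

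The fatty acid library is compared with the same controls, so its values are not independent of those for cholesterol. In it the cathepsins were mostly lower and the pump was divided. Of 9 cathepsins 6 were lower, 2 higher and 1 mixed. Of 17 pump subunits 8 were higher, 5 lower and 4 mixed. Over all genes 40.4% were higher and 39.7% lower than both controls. The log2 median was -0.12 for the cathepsins, 0 for the pump and 0 for all genes. Of the 31 genes, 1 was at least 1.5-fold higher (Atp6v1b2), against 2.92% of all genes, and 1 at least 1.5-fold lower (Hexa), against 6.13%. None of them differed by 2-fold, against 2.65%.

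**Figure D3:**
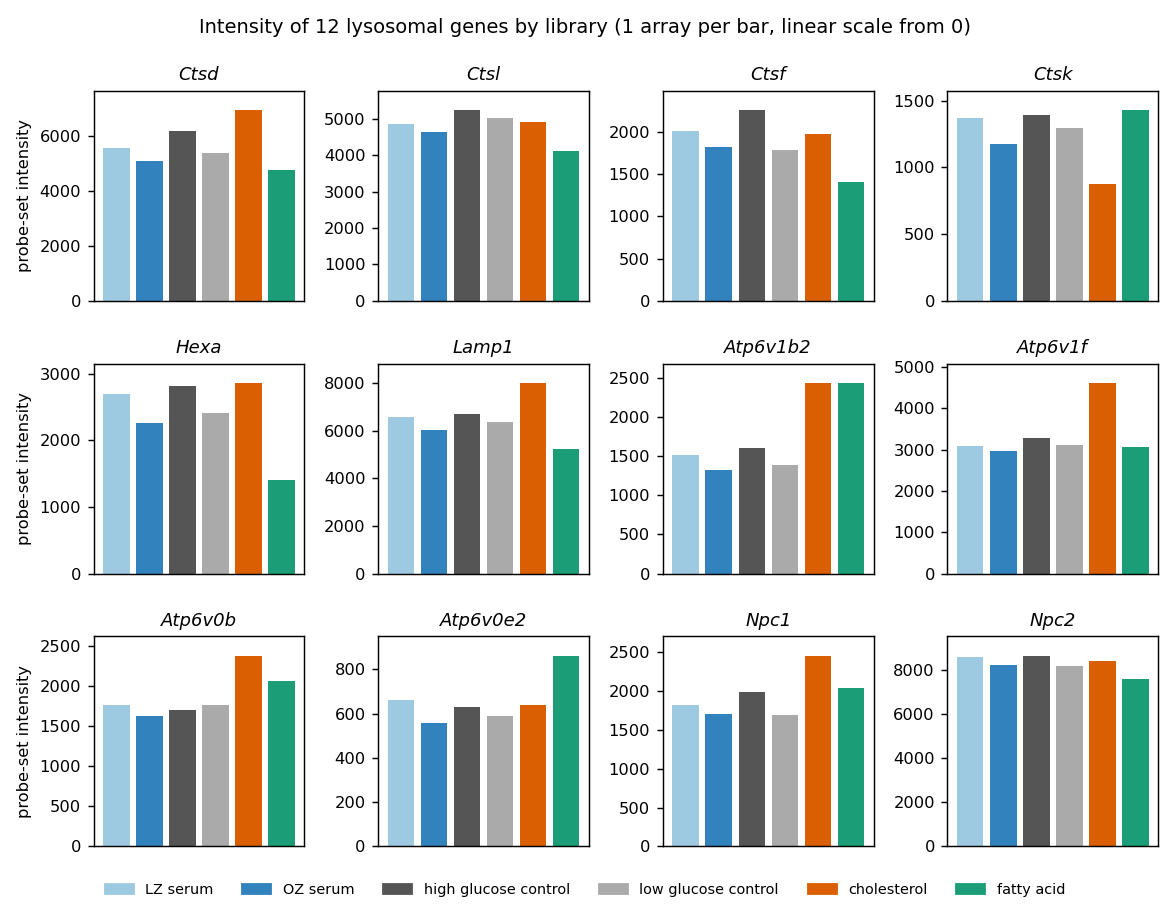
Intensity on a linear scale from 0 of 12 genes in the 6 libraries, 1 array per bar and so without error bars. Hexa is lowest in the fatty acid library (1409), Ctsk is lowest in the cholesterol library (877), and Atp6v1b2 is high in both lipid libraries (2430.5 and 2439).

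Hexa showed the largest difference with fatty acid. It encodes the alpha subunit of beta-hexosaminidase, which degrades the ganglioside GM2. Its readings were 1409 with fatty acid, 2812 and 2412 in the high and low glucose controls, 2867 with cholesterol, and 2694 and 2268 in LZ and OZ serum. The fatty acid reading was below all 5 others, 1.71-fold below the nearer control (log2 -0.78, gap between the controls 0.22). Lamp1 was 5214 with fatty acid, 6685 and 6374 in the high and low controls, 8008 with cholesterol, and 6569 and 6010.25 in LZ and OZ serum. It was again the lowest with fatty acid, 1.22-fold below the nearer control, and the highest with cholesterol. Npc2 read 7589 with fatty acid against 8657 and 8192 in the controls, 8410.1 with cholesterol, and 8588 and 8233 in LZ and OZ serum. Lamp2 was lower by 0.078 on the log2 scale, while Npc1 was the exception in this class with a higher value of 0.039.

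Among the cathepsins, Ctsf had the largest lower value with fatty acid. This cysteine protease read 1406 there, 2255 and 1788 in the high and low controls, 1973 with cholesterol, and 2013 and 1816 in LZ and OZ serum. The fatty acid reading was the lowest, 1.27-fold below the nearer control, while the controls themselves differed by 0.33 on the log2 scale. Ctsl, a broad cysteine protease, was 1.22-fold lower, Ctsa 1.15-fold and Ctsd 1.13-fold. Ctsc, which activates serine proteases of leukocytes, and Ctsh, an aminopeptidase, were lower by -0.12 and -0.035. Ctsb lay between both controls.

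The higher cathepsins with fatty acid were Ctse and Ctsk. Ctse, an aspartic protease of endosomes, was close to the signal limit and read 139.8 with fatty acid, 114.5 and 115.4 in the high and low controls, 108.1 with cholesterol, and 129.0 and 112.2 in LZ and OZ serum. It was highest with fatty acid, 1.21-fold above the nearer control, and lowest with cholesterol. For Ctsk the difference was 0.037, less than the 0.10 between the controls.

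Pump subunits that were higher with fatty acid included isoforms as well as core parts. Atp6v1b2 was 1.52-fold higher, as it was with cholesterol. Atp6v0e2, a small V0 subunit, read 863 with fatty acid, 632 and 591 in the high and low controls, 640.2 with cholesterol, and 661 and 558 in LZ and OZ serum. Fatty acid was the highest by 1.37-fold over the nearer control, and cholesterol lay near the controls. The brain-type isoform Atp6v1g2, dim in these cells at 109.3 to 161.7, was 1.39-fold higher and also highest with fatty acid. Atp6v1c1 was 1.27-fold and Atp6v0b 1.17-fold higher.

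The lower pump subunits differed by little. Atp6v1a read 1529.7 with fatty acid against 1871 and 1679.9 in the high and low controls, 1989 with cholesterol, and 1796 and 1778 in LZ and OZ serum, making fatty acid the lowest by 1.10-fold. Atp6v0d1 was 1.04-fold lower. Atp6v1f, Atp6v0e1 and Atp6v1b1 had differences of -0.023, -0.0035 and -0.00084 on the log2 scale, and that of Atp6v0e1 was above 0 after quantile normalization and cyclic loess. Beyond the gap between the controls, 6 pump subunits were higher with fatty acid (Atp6v0b, Atp6v0c, Atp6v0e2, Atp6v1b2, Atp6v1c1 and Atp6v1g2) and none was lower. For the cathepsins 1 was higher (Ctse) and 3 lower (Ctsa, Ctsf and Ctsl), and of the others 3 were lower (Hexa, Lamp1 and Npc2). In total 7 of the 31 genes were higher and 6 lower by more than that gap with fatty acid. Over all 11540 genes, 2931 were higher and 3031 lower, 51.7% in either direction.

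Both classes were then compared within each contrast. With cholesterol the median of the cathepsins lay 0.10 below that of the pump on the log2 scale, and with fatty acid 0.12 below. Against the high glucose control alone the medians were -0.084 for cathepsins and 0.13 for the pump with cholesterol, and -0.35 and 0.010 with fatty acid. Against the low glucose control alone the cathepsins stood at 0.14 and the pump at 0.25 with cholesterol, and at -0.12 and 0.16 for fatty acid. The cathepsin median was thus the lower in each of these lipid contrasts, although its own sign with cholesterol depended on the control. All genes had medians between -0.0030 and 0.012 in these contrasts.

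Across all 6 libraries, cholesterol was the highest for 10 of 17 pump subunits, 3 of 9 cathepsins and 22.6% of all genes. Fatty acid was the highest for 4 pump subunits (Atp6v0e2, Atp6v1b2, Atp6v1c1 and Atp6v1g2), 2 cathepsins (Ctse and Ctsk) and 30% of all genes. It was the lowest for 6 cathepsins, 2 pump subunits (Atp6v0d1 and Atp6v1a), 4 of the 5 others and 29% of all genes.

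The direct comparison of the lipid cultures uses neither control. The labels do not say whether both cultures held the same glucose, so an effect of glucose cannot be told apart from that of the lipids here. The cholesterol library was higher than the fatty acid library for 24 of the 31 genes and lower for 7, against 51.9% and 48% of all genes. That held for 7 of 9 cathepsins, 12 of 17 pump subunits and all 5 others, with medians of 0.30, 0.10 and 0.27 on the log2 scale and 0.014 over all genes. At least 1.5-fold higher with cholesterol were 4 of the 31, against 7.43% of all genes: Hexa (2.03-fold), Ctsc (1.73-fold), Lamp1 (1.54-fold) and Atp6v1f (0.59 on the log2 scale). At least 1.5-fold lower was 1, Ctsk (1.63-fold), against 4.31%. Only Hexa passed 2-fold, a size reached by 2.82% of all genes, and after quantile normalization or cyclic loess its log2 difference of 1.02 became 0.996 and 0.990, just under that limit. Doses are not matched between the lipids, since that of palmitate is not in the labels. For Atp6v1b2 the log2 difference between the lipid libraries was -0.0049, with fatty acid the higher.

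The controls differed from each other as well. In high against low glucose 25 of the 31 genes were higher and 6 lower, against 48.9% and 51.1% of all genes. These were 8 of 9 cathepsins, 12 of 17 pump subunits and all 5 others, with medians of 0.14 for the cathepsins, 0.097 for the pump and -0.0051 for all genes. Within the pump, 9 of 10 V1 subunits were higher but 3 of 7 V0 subunits. Ctsc alone reached 1.5-fold, against 1.59% of all genes higher by that much. It read 172.2 in high and 107.9 in low glucose, 172.1 with cholesterol, 146.3 and 126.7 in LZ and OZ serum, and 99.3 with fatty acid, all near the signal limit. The high glucose control and the cholesterol library were level, and so were the low glucose control and the fatty acid library, within 1.09-fold. Ctsh was 1.33-fold and Atp6v1d 1.28-fold higher in high glucose.

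In OZ against LZ serum 6 of the 31 genes were higher and 25 lower, against 41.9% and 58.1% of all genes. All 9 cathepsins were lower, with a median of -0.13 on the log2 scale against -0.028 for all genes. The pump had 5 higher and 12 lower, with all 7 V0 subunits lower. None of the 31 reached 1.5-fold, and the cathepsin with the largest difference was Ctsk, 1.17-fold lower. When both sera were required to lie on the same side of both controls, 1 gene was higher and 3 were lower, against 8.83% and 19.7% of all genes, and the other 27 were mixed.

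Further lysosomal genes, in lists written from textbook knowledge but with earlier results of these data known, were read in the same way. The glycosidases and sulfatases, enzymes of the same kind as Hexa, were low as a group with fatty acid: of 16 measured, 15 were lower than both controls and none higher, with a median of -0.48, and 14 of the 15 by more than the gap between the controls. Over all genes, 39.7% were lower with fatty acid, and 3031 of 11540 were lower by more than that gap. With cholesterol 7 of the 16 were higher, near the 36.3% of all genes, and 1 was lower, against 33.6%. The median was 0, with 8 mixed genes counted as 0. Against the high and low glucose control alone it was 0.083 and 0.12. Arsa, which removes sulfate from sulfatide, read 380.1 with fatty acid against 737 and 721 in the high and low controls, 827 with cholesterol, and 706 and 633 in LZ and OZ serum, 1.90-fold below the nearer control. Glb1, lysosomal beta-galactosidase, was 1.83-fold lower and Galns, a sulfatase of keratan sulfate, 1.69-fold lower. Neu1, the lysosomal sialidase, and Arsb were the largest on the higher side with cholesterol, at 1.42-fold and 1.19-fold. In the direct comparison all 16 were higher with cholesterol than with fatty acid, against 51.9% of all genes, with a median of 0.73 and Arsa at 2.18-fold.

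**Figure D4:**
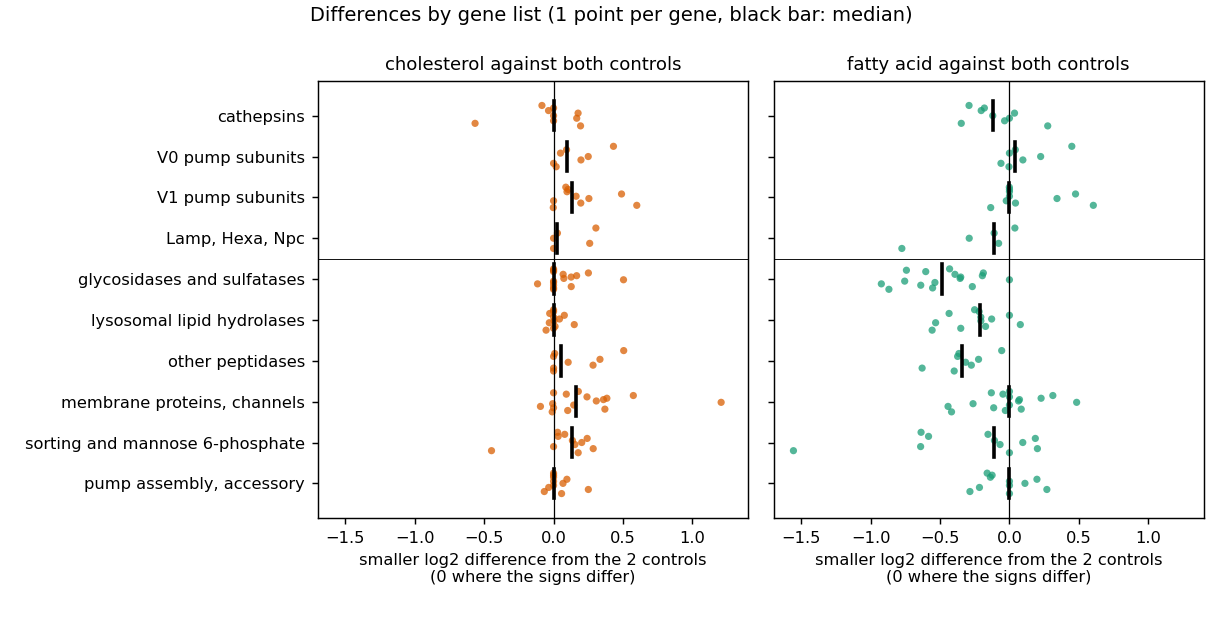
Log2 difference of each kept gene from the nearer of both controls (0 where the signs differ), by list, with cholesterol on the left and fatty acid on the right; 1 point is 1 gene and the black bar is the median. The glycosidases and sulfatases have a median of -0.48 with fatty acid and 0 with cholesterol, while V0 and V1 pump subunits have medians of 0.094 and 0.13 with cholesterol.

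Lipid hydrolases with their helper proteins and the other peptidases had the same direction with fatty acid. Of 12 lipid genes 10 were lower and 1 higher, against 39.7% and 40.4% of all genes, with a median of -0.21. Among these, Gm2a, the activator protein that presents GM2 to hexosaminidase, was 1.47-fold lower, Pld3 1.45-fold and Psap, the precursor of the saposins, 1.35-fold. All 8 peptidases were lower, against the same 39.7%, with a median of -0.34; Scpep1 was 1.55-fold, Lgmn, which processes cathepsins, 1.32-fold and Tpp1 1.30-fold lower. With cholesterol 5 of the 12 lipid genes were higher and 3 lower, and 5 of the 8 peptidases were higher and none lower, against 36.3% and 33.6% of all genes, with Pepd at 1.42-fold, Tpp1 at 1.26-fold and Dpp7 at 1.22-fold. Pepd is a largely cytosolic dipeptidase, so its place in this list is loose. All 8 peptidases and 10 of the 12 lipid genes were higher with cholesterol than with fatty acid, against 51.9% of all genes, with medians of 0.74 and 0.35 and Pepd at 2.02-fold.

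Genes of the lysosomal membrane and of sorting were mostly higher with cholesterol. Of 16 membrane proteins and channels 11 were higher and 3 lower, with a median of 0.16, against 36.3% and 33.6% of all genes. With fatty acid 6 were higher and 7 lower, near the 40.4% and 39.7% of all genes. Mcoln3, a cation channel of endosomes and lysosomes, read 457.8 with cholesterol, 169.5 and 198.2 in the high and low controls, 138.5 and 172.5 in LZ and OZ serum, and 124.7 with fatty acid, 2.31-fold above the nearer control. Its relative Mcoln1, the calcium channel of the lysosome, was 1.49-fold and Abca2 1.31-fold higher. Tmem192 was higher with both lipids, 1.28-fold with cholesterol and 1.40-fold with fatty acid, and Abca2 was 1.34-fold lower with fatty acid. Between the lipid libraries, Mcoln3 was 3.67-fold and Abca2 2.21-fold higher with cholesterol.

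Of 11 genes that sort hydrolases to lysosomes, 9 were higher and 1 lower with cholesterol, against 36.3% and 33.6% of all genes. With fatty acid 3 were higher and 7 lower, against 40.4% and 39.7%. The lower gene with cholesterol was Sort1, a sorting receptor for hydrolases, which read 655 with fatty acid, 1413 with cholesterol, 2045 and 1927 in the high and low controls, and 1909 and 1841 in LZ and OZ serum. It was lower than both controls in both lipid libraries, 2.94-fold with fatty acid and 1.36-fold with cholesterol. Gnptab, which makes the mannose 6-phosphate tag, and Igf2r, a receptor for that tag, were each 1.56-fold lower with fatty acid. In the direct comparison all 11 were higher with cholesterol than with fatty acid, against 51.9% of all genes, with Sort1 at 2.16-fold. Ap3d1, of an adaptor complex, was higher with cholesterol by 1.22-fold and with fatty acid by 1.14-fold.

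Of 11 genes for assembly of the pump, 4 were higher with cholesterol, a share near the 36.3% of all genes, and 2 were lower, against 33.6%. The median was 0, and -0.096 and 0.19 against the high and low glucose control alone. With fatty acid 3 were higher and 5 lower, against 40.4% and 39.7%. Tcirg1, which encodes the a3 form of the large V0 subunit under a name outside the Atp6v0 series, was 1.19-fold higher with cholesterol and 1.09-fold lower with fatty acid. Rogdi was 1.07-fold higher with cholesterol and 1.16-fold lower with fatty acid. Atp6ap1, an accessory subunit, was 1.04-fold higher and 1.22-fold lower, and Tmem199, an assembly factor, 1.21-fold higher with fatty acid.

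Of 5 cathepsin inhibitors measured, 2 were higher and 2 lower with cholesterol, against 36.3% and 33.6% of all genes. With fatty acid 2 were higher and 3 lower, against 40.4% and 39.7%. Cst6, cystatin E/M, which blocks cysteine cathepsins and legumain, read 2048 with fatty acid, 1350.2 with cholesterol, 824 and 820.2 in the high and low controls, and 788 and 720.3 in LZ and OZ serum. It was 2.49-fold higher with fatty acid and 1.64-fold higher with cholesterol. Cstb, the cytosolic cystatin B, was 1.68-fold higher with cholesterol and 1.11-fold lower with fatty acid. Serpinb6a was lower with both, 1.26-fold and 1.19-fold, and Cst7 1.43-fold higher with fatty acid.

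Some macrophage markers were also higher in the cholesterol library. Cd68, a lysosomal membrane protein used as a macrophage marker, read 331.0 with cholesterol, 112.4 and 108.9 in the high and low controls, 120.2 and 119.7 in LZ and OZ serum, and 148.0 with fatty acid, 2.94-fold above the nearer control. Cd14 read 1121 with cholesterol, 785 and 517 in the high and low controls, and 341.3 with fatty acid. Its difference with cholesterol was 0.51 on the log2 scale, less than the 0.60 between the controls. Of the other kept markers, C1qa and Tyrobp were 1.02-fold and 1.07-fold higher with cholesterol, and C1qc and Laptm5 were mixed. The 16 macrophage and leukocyte markers summed to 2472 with cholesterol, 1851 and 1604 in the controls, 1892 and 1765 in LZ and OZ serum, and 1517 with fatty acid. The defining leukocyte genes Ptprc, Csf1r, Itgam and Adgre1 were below the median of all values in every library. With fatty acid 8 of 9 mesenchymal markers were lower than both controls, with a median of -0.54, and 4 of them at least 1.5-fold lower, against 39.7% and 6.13% of all genes. The part of these markers in the lysosomal values was not tested.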

How the data were processed

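Gene expression was measured in 6 cultures, 1 array each. The authors deposited 1 linear intensity per probe set and array. How these were corrected for background, summarised and normalized is not given in the sources used here. They were used without further scaling, on the log2 scale without an offset. No batch is labelled. Probe sets were named through GEO's platform annotation (18511 with 1 gene, 575 with several, 17599 with none); a gene with several took the one with the highest mean. Columns were grouped by sample title.

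The members and gene lists were chosen with earlier results of these data known. Readings in each library are given for members that reach 1.5-fold in a comparison or are the extreme of their class, and up to 3 genes are named per list and lipid, plus any at 2-fold. Tfeb, Tfe3 and Mitf are named beyond this rule. The counting was tested on simulated data. Alternatives were quantile normalization, centring, cyclic loess, an offset of 32, other signal filters, the mean of probe sets, a 1.5-fold threshold and single references. Python 3.11.15 with pandas 2.3.3 and numpy 2.4.6, and R 4.3.3 with limma 3.58.1, were used.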

Additional observations from a re-analysis of the deposited data

How the results depend on the processing

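With 1 array per group, alternatives show how the values depend on processing and not how they would repeat. Under 14 settings, of 822 gene values 763 moved by less than 0.1 on the log2 scale and 59 by more. A sign changed in 9 of them, over 4 pump genes whose own differences were 0.10 or less after rounding: Atp6v0e1 with fatty acid, and Atp6v0e1, Atp6v0a1, Atp6v1b1 and Atp6v1e1 between the lipids. Atp6v0e1 between the lipids went from 0.10 to -0.11 when its dim probe set was averaged in. Part of this stability is built in. The other signal filters leave a gene's own difference as it is, and averaging probe sets can alter only Atp6v0e1. A nonzero difference from both controls also keeps its sign against either control alone or their mean. Of 278 summary values 256 stayed. Most that moved did so with the choice of control. With the low glucose control alone, the cholesterol medians were 0.14 for cathepsins and 0.25 for the pump, 6 cathepsins were higher, the fatty acid pump median was 0.16, and cathepsins minus pump with fatty acid was -0.28. With the high glucose control alone, cathepsins minus pump was -0.22 with cholesterol and -0.36 with fatty acid, and the cathepsin median was -0.35 with fatty acid and -0.11 for the sera, where cathepsins minus pump was -0.11. With the mean of the controls, the cholesterol pump median was 0.21, cathepsins minus pump -0.23 with cholesterol and -0.32 with fatty acid, and the fatty acid cathepsin median -0.24. Without the signal filter 5 cathepsins were higher with cholesterol, and 2 members differed by 2-fold between the lipids, the added one being the dim Ctsm. After quantile normalization and cyclic loess 0 members differed by 2-fold between the lipids. At 1.5-fold the members past the threshold were 1 with cholesterol, 2 with fatty acid, 5 between the lipids and 1 between the glucose controls. Medians of all genes stayed within 0.1 under each scaling. Leaving out the cathepsins listed as placental or leukocyte, of which only Ctse passed the filter, kept cathepsins minus pump at -0.10 with cholesterol. Number of arrays, and signal near the filter limit, set the precision.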

Other observations

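Of 17 genes of TFEB and mTORC1 control, 16 were higher than both controls with cholesterol and none lower, where 36.3% of all genes were higher. Their median was 0.11 on the log2 scale. By more than the gap between the controls, 8 of them were higher, against 2277 of all 11540 genes. With fatty acid 8 were higher and 4 lower, against 40.4% and 39.7%, with a median of 0. Against the high and low glucose control alone that median was 0.061 and 0.094. Fnip2 and Flcn, partners in the folliculin complex that acts on the Rag GTPases, were 1.76-fold and 1.41-fold higher with cholesterol. Rragd, 1 of those GTPases, was 1.40-fold higher, although its high and low glucose controls differed by 1.05 on the log2 scale. With fatty acid Fnip1 was 1.32-fold higher, Rraga 1.19-fold higher and Lamtor2 1.25-fold lower. Tfeb itself, dim here, read 151.9 in LZ and 129.1 in OZ serum, 150.4 with cholesterol and 136.2 with fatty acid. The high and low controls read 147.1 and 148.5, a difference of 0.018 with cholesterol. Tfe3 and Mitf, both in this list, were 1.18-fold and 1.30-fold higher with cholesterol. For Mitf that was 0.38 on the log2 scale, less than the 0.45 between the controls. With fatty acid both were mixed.

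Of 13 autophagy genes 6 were higher and 4 lower with cholesterol, and 6 higher and 5 lower with fatty acid, with medians of 0 in both. These counts lie near the shares over all genes, 36.3% and 33.6% in the cholesterol comparison and 40.4% and 39.7% in that of fatty acid. Sqstm1, the cargo receptor p62, was 1.27-fold higher with cholesterol and 1.61-fold higher with fatty acid. Wipi1, which binds the forming autophagosome membrane, was 1.31-fold lower with cholesterol and 1.57-fold lower with fatty acid. Atg5 was 1.23-fold lower with cholesterol and Vps18 1.30-fold higher with fatty acid.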
